A study of Mus musculus with 35 samples.

Results

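The 47 genes described here encode the subunits of the receptors for glutamate and GABA. Within the deposited table they were taken by gene name: the AMPA (Gria), kainate (Grik), NMDA (Grin), delta (Grid) and metabotropic (Grm) glutamate receptor families gave 26 genes, and the GABA-A (Gabra, Gabrb, Gabrg, Gabrd, Gabre, Gabrp, Gabrq, Gabrr) and GABA-B (Gabbr) families gave 21. The table they were read from listed 21203 genes. Of the 47 members, 42 passed the filter on low counts and were tested (25 glutamate and 17 GABA), and 5 did not: Gabra6, Gabrp, Gabrr1, Gabrr3 and Grm6.

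RNA was sequenced from brain tissue of C57BL/6NCrl mice, labelled as left cortex, in 34 libraries, taken as 1 mouse each. The model was a closed head injury, an impact on the intact skull that leaves a diffuse lesion. The 5 Sham mice carried neither injury nor injection; replicates 3 and 4 were collected at week 1 and replicates 1, 2 and 5 at week 3. All other mice were injured and then injected into the left hippocampus with phosphate-buffered saline (PBS), with naive mesenchymal stromal cells (MSCs) or with mesenchymal stromal cells expressing interleukin-4 (IL-4 MSCs), and were collected at 1 or 3 weeks post-injury (wpi). Each of these groups held 5 mice, except PBS at 3 wpi with 4. The MSCs were primary mouse cells, and IL-4 came from a transfected synthetic messenger RNA, so that its expression was transient. Injury was thus shared by all injected groups, and no injured group went without an injection. Per the study's methods, the mice were 8 to 9 weeks old at the start of the procedures.

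Glutamate opens AMPA, kainate and NMDA receptors, which are cation channels built of several subunits and carry most fast excitation in the forebrain, while metabotropic glutamate receptors signal through G proteins. GABA opens GABA-A receptors, chloride channels of several subunits that carry most fast inhibition, and acts on GABA-B receptors, G-protein-coupled dimers of the products of Gabbr1 and Gabbr2. Subunit choice sets the conductance, kinetics and place of a receptor: GluA2 (Gria2) makes AMPA receptors impermeable to calcium, GluN1 (Grin1) is required in every NMDA receptor, and the δ subunit (Gabrd) places GABA-A receptors outside synapses.

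Reads assigned per library totalled 29838423 to 41554322, so that 3 counts, taken as the detection floor, correspond to 0.0722 to 0.101 CPM, the count relative to the library total on its usual scale. Same-group libraries correlated at r = 0.981 to 0.994 over genes in all 66 pairs, and none was a copy of another. The floor covers counting error only. The marker lists of cortical projection neurons, hippocampus, striatum and thalamus, each summed, lay above the floor in every mouse. The striatal markers varied most. Their summed level ran from 395 to 1218 CPM over the Sham mice and from 592 to 3320 CPM over the IL-4 MSC mice at 3 wpi, and it stands beside the results it moved with.

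Levels between genes were compared in TPM, a share of the library that is scaled for transcript length. In Sham mice, Gabbr1, the ligand-binding GABA-B subunit, was at 543 ± 32.9 TPM (SD, n = 5), against 149 ± 6.69 TPM for its partner Gabbr2. Among the α subunits, Gabra2 stood at 76.3 TPM, Gabra4 at 71.5 TPM, Gabra3 at 65.8 TPM and Gabra5 at 53.3 TPM. The ranges of each neighbouring pair from Gabra2 down to Gabra5 overlapped. Among the β subunits, Gabrb2 (122 ± 3.58 TPM) lay above Gabrb1 (43.2 ± 3.75 TPM). Gabrd, the subunit of extrasynaptic receptors, reached 52.5 ± 15.8 TPM.

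Among glutamate receptors, Gria2 (277 ± 25.2 TPM) and Gria1 (217 ± 38.9 TPM) led the AMPA family with overlapping ranges, and Gria3 (108 ± 5.84 TPM) and Gria4 (69.3 ± 2.05 TPM) lay below them. Grin1 reached 250 ± 10.6 TPM, which was 55.4% of the NMDA sum. The regulatory subunits Grin2b and Grin2a followed at 78.1 and 61.7 TPM, with overlapping ranges. Grik5 held 53.6% of the kainate sum at 105 ± 4.74 TPM, ahead of Grik2 at 34.1 TPM. Grm5, the main postsynaptic metabotropic receptor coupled to phospholipase C, led its family at 76.7 ± 8.73 TPM, followed by the presynaptic Grm7 at 60.8 TPM. Grid1, a delta receptor that binds cerebellins at synapses, stood at 28.0 TPM.

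**Figure D1:**
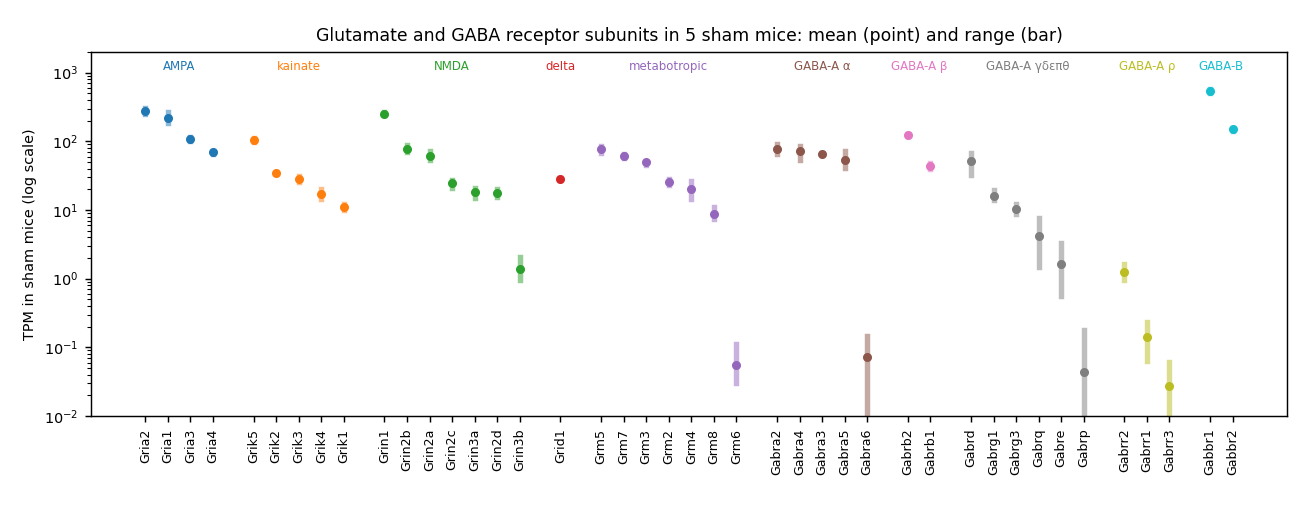
Level of 42 of the members in the 5 Sham mice, in TPM on a log axis, grouped by receptor family; points mark the mean and bars the range over mice. Gabbr1 (543 TPM) stands highest of those shown, and Gabra6, Gabrp, Gabrr1, Gabrr3 and Grm6 lie lowest, with means of at most 0.141 TPM.

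The 5 members left out of the test were at or near the floor. Gabrp, Gabrr1, Gabrr3 and Grm6 reached at most 3, 18, 10 and 9 counts in any library. Gabra6, the α6 subunit of cerebellar granule cells, had 228 counts (6.53 CPM) in MSCs 3 wpi replicate 5 and at most 0.285 CPM in any other library. Among the tested members, Gabrr2, the ρ2 subunit, was lowest at 1.27 TPM in the Sham mice together with Grin3b (1.39 TPM) and Gabre (1.63 TPM).

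The promoters of an AMPA, an NMDA, a metabotropic and a GABA-A member that recur in the comparisons are printed to show their start regions. The RefSeq promoter table (GRCm38.p6, from 250 bases before to 50 bases after each start) held 39 entries for 32 of the 47 members. Capitals mark matches to the GC box GGGCGG, bound by Sp1-type factors, and to the TATA box TATAAA, each searched on both strands, so that CCGCCC is the GC box read on the other strand.
Gria4, chr9:4796185-4796484, minus strand, no match: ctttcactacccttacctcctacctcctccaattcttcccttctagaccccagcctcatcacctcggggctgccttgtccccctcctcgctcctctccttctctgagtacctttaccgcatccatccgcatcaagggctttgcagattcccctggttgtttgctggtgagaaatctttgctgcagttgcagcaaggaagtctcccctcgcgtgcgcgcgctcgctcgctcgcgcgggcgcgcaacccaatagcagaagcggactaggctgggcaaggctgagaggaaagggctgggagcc
Grin1, chr2:25319138-25319437, minus strand, 1 GC box: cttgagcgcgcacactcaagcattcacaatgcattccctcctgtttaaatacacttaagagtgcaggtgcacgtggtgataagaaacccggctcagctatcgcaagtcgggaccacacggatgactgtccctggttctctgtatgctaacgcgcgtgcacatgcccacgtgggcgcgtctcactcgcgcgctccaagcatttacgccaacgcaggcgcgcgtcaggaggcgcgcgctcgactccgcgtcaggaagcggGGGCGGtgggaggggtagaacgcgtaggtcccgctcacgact
Grm7, chr6:110645262-110645561, plus strand, the first of 2 entries, 1 GC box: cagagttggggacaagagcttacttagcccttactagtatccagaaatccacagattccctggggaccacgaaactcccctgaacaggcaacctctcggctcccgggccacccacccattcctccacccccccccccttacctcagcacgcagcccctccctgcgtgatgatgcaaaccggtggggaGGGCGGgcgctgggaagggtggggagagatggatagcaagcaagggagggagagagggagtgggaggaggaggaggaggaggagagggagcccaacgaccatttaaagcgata
Gabrb2, chr11:42420190-42420489, plus strand, the first of 3 entries, 1 GC box and 1 TATA box: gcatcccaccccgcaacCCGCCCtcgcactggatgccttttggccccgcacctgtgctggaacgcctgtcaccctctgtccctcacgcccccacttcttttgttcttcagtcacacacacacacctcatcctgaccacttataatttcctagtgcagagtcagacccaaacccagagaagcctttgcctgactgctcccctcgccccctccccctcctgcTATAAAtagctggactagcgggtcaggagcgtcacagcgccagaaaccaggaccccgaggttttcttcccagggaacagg

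These 4 windows were GC-rich, at 59.7%, 60.7%, 61% and 59%. A GC box was in 19 of the 39 member promoters (48.7%) and in 35.7% of all 32851 promoters of this length. TATAAA was in 4 of 39 (10.3%) against 13.6% of all. The cAMP response element TGACGTCA was in 0 of 39, against 1.79% of all. A match is a description of the letters only.

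Relative to Sham mice, receptor members fell at 1 wpi in each injected group, and most of them did so after IL-4 MSCs. In the IL-4 MSC mice 25 of 42 members fell and 0 rose (59.5% lower), where 18.5% of all 17131 genes tested were called lower and 37.0% were called in either direction. In the MSC mice 10 members fell and 0 rose, beside 6.89% of all genes called lower and 17.8% in either direction. In the PBS mice 7 members fell and 0 rose, beside 5.03% of all genes called lower and 13.8% in either direction. Calls are edgeR quasi-likelihood tests at a Benjamini-Hochberg adjusted p under 0.05 over all genes. The median log2 fold change of the 42 members in the IL-4 MSC mice was -0.21, with a range of -0.49 to 0.25 and 38 members below 0, against -0.02 over all genes. These comparisons share the same 5 Sham mice.

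**Figure D2:**
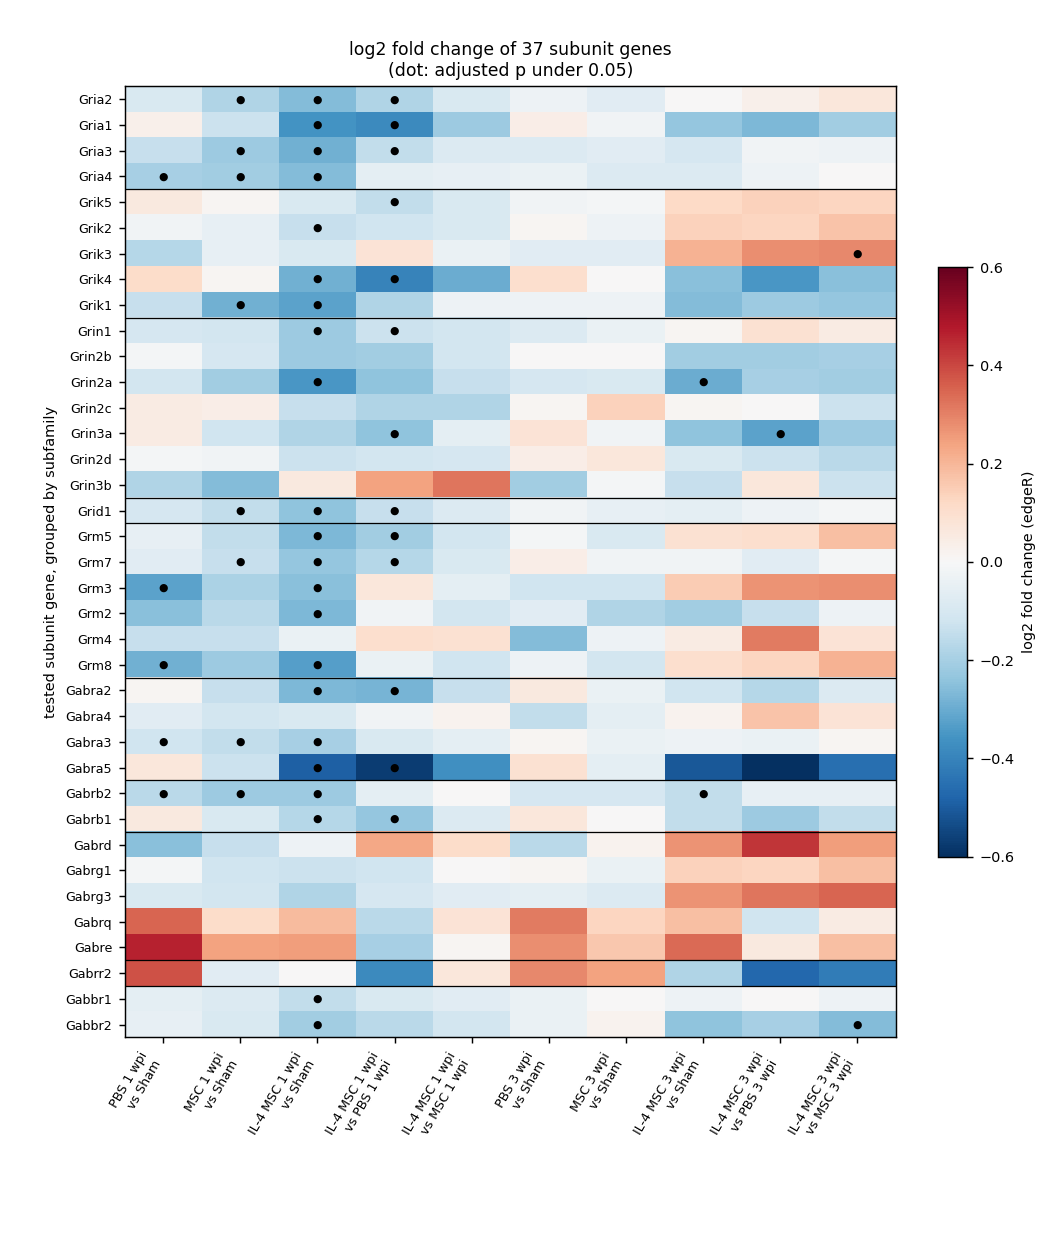
Log2 fold change of 37 of the tested members (rows, by receptor family) in each comparison (columns) at 1 and 3 wpi, from the edgeR fit; blue is lower, red is higher, and a dot marks an adjusted p under 0.05. The IL-4 MSC 1 wpi column against Sham holds 22 dots, all lower, its column against PBS holds 13, and the columns of PBS and MSCs at 3 wpi hold none.

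All 4 AMPA subunits fell in the IL-4 MSC mice. Gria4 showed the lowest adjusted p: its level was 144, 140, 131, 134 and 137 CPM in the Sham mice and 116, 112, 112, 112 and 120 CPM in the IL-4 MSC mice at 1 wpi. The PBS mice gave 124, 113, 123, 122 and 116 CPM, and the MSC mice 124, 123, 115, 118 and 112 CPM. Every injured mouse at 1 wpi thus lay below every Sham mouse, while the injured groups overlapped among themselves. The log2 fold change of Gria4 against Sham was -0.26 ± 0.04 (SE) after IL-4 MSCs (edgeR adjusted p = 7.35e-07), -0.21 after MSCs (6.44e-05) and -0.20 ± 0.04 after PBS (0.000215).

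Gria2 was at 667, 623, 766, 736 and 636 CPM in the Sham mice and at 599, 543, 570, 569 and 580 CPM in the IL-4 MSC mice, without overlap (log2 fold change -0.26 ± 0.06, edgeR adjusted p = 0.00118). Gria2 also fell in the MSC mice (-0.18, adjusted p = 0.0479), and that call was lost under 5 of 9 other settings. Gria3 fell by 0.29 on the log2 scale after IL-4 MSCs and by 0.22 after MSCs. Gria1 fell by 0.36, but its Sham mice were spread, at 503, 490, 691, 640 and 479 CPM, and overlapped the IL-4 MSC mice at 484, 400, 439, 426 and 442 CPM. The call for Gria1 was lost without Sham replicate 3 and without IL-4 MSC replicate 2. The Sham mice collected at week 1 were the highest, at 691 and 640 CPM. Against them alone the log2 fold change of Gria1 was -0.60 (edgeR adjusted p = 0.000767).

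Of the kainate subunits, Grik1 (-0.32 ± 0.08), Grik2 (-0.14) and Grik4 (-0.29) fell after IL-4 MSCs, and Grik1 also fell after MSCs (-0.29). Grik3 and Grik5 did not pass the test. Grik5, the high-affinity subunit, nevertheless lay at 176, 179, 183, 183 and 184 CPM in the IL-4 MSC mice, below the 186, 190, 201, 190 and 194 CPM of the Sham mice. In the NMDA family 2 of 7 members fell. Grin1, the obligatory subunit, went from 503, 480, 479, 478 and 518 CPM in the Sham mice to 398, 428, 425, 415 and 438 CPM in the IL-4 MSC mice (-0.22 ± 0.05, edgeR adjusted p = 0.00016). Grin2a, the subunit that rises during maturation of the forebrain, went from 397, 402, 521, 448 and 423 CPM to 384, 325, 329, 320 and 365 CPM (-0.35 ± 0.09, adjusted p = 0.00232). Neither NMDA subunit overlapped between these groups, and neither passed in the PBS or MSC mice.

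Grid1 was tightly measured, at 80.3, 75.0, 77.0, 81.1 and 75.8 CPM in the Sham mice and 65.9, 63.6, 66.0, 67.5 and 67.3 CPM in the IL-4 MSC mice (-0.24 ± 0.04, edgeR adjusted p = 5.48e-06). The MSC mice lay between them at 68.2, 71.6, 70.2, 71.5 and 68.2 CPM (-0.15, adjusted p = 0.00312), and the PBS mice at 75.9, 72.4, 75.3, 70.6 and 68.9 CPM overlapped the Sham mice. Among metabotropic receptors, 5 of the 7 tested fell after IL-4 MSCs. These were Grm2 (-0.27) and Grm3 (-0.25), which couple to Gi, Grm5 (-0.27 ± 0.07), and the presynaptic Grm7 and Grm8 (-0.33). Grm7 stood at 67.7, 68.0, 66.6, 67.7 and 64.3 CPM in the Sham mice and 60.9, 57.4, 53.8, 53.8 and 58.4 CPM in the IL-4 MSC mice (-0.23 ± 0.04, adjusted p = 6.47e-06). Grm3 and Grm8 were also lower in the PBS mice, by -0.32 and -0.29, and Grm7 in the MSC mice, by -0.14.

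Among GABA-A α subunits, Gabra2 (-0.27), Gabra3 (-0.20) and Gabra5 fell after IL-4 MSCs, and Gabra4 did not pass. Gabra3 also fell after PBS (-0.12) and MSCs (-0.15). Gabra5, the extrasynaptic α subunit of hippocampal pyramidal cells, had a log2 fold change of -0.49 ± 0.18 (adjusted p = 0.0305). Its Sham mice, however, were at 51.1, 52.2, 86.7, 78.3 and 47.6 CPM, with the mice collected at week 1 the highest, and overlapped the IL-4 MSC mice at 49.1, 40.7, 45.3, 42.3 and 47.4 CPM. The call for Gabra5 was lost in 5 of the 10 fits that left out 1 mouse, namely Sham replicate 3 or 4 or IL-4 MSC replicate 2, 3 or 4.

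Among β subunits, Gabrb2 and Gabrb1 fell after IL-4 MSCs. Gabrb2 went from 238, 232, 228, 219 and 236 CPM to 202, 188, 191, 197 and 213 CPM (-0.22 ± 0.04), and it fell as well after PBS (-0.16 ± 0.04) and MSCs (-0.22). No IL-4 MSC mouse reached the Sham range for Gabrb2. Gabrb1 fell by 0.17. Gabrg1, Gabrg3, Gabrd, Gabre, Gabrq and Gabrr2 did not pass.

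Both GABA-B subunits fell after IL-4 MSCs. Gabbr1 was at 880, 929, 811, 807 and 900 CPM in the Sham mice and 750, 791, 778, 766 and 826 CPM in the IL-4 MSC mice (-0.15, edgeR adjusted p = 0.0206), and Gabbr2 at 436, 432, 405, 391 and 419 CPM against 378, 364, 330, 335 and 398 CPM (-0.21, adjusted p = 0.0242). The ranges of both genes overlapped. Against the Sham mice of week 1 alone, neither passed (Gabbr1 -0.05, edgeR adjusted p = 0.61, and Gabbr2 -0.14, adjusted p = 0.291). Over all families, 16 members had every IL-4 MSC mouse below every Sham mouse, 8 had every MSC mouse and 4 every PBS mouse below. The same held for 13.4%, 5.58% and 3.63% of all genes tested.

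**Figure D3:**
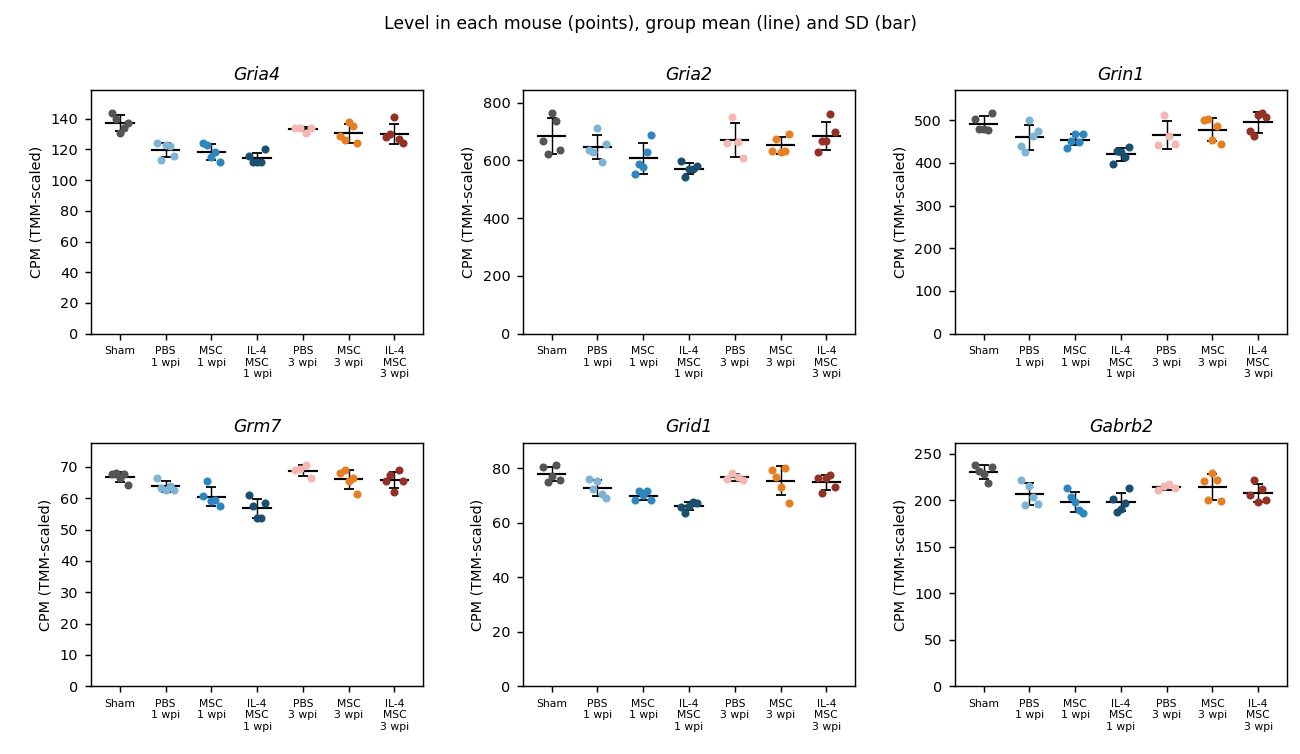
Level of 6 members (Gria4, Gria2, Grin1, Grm7, Grid1 and Gabrb2) in each mouse of the 7 groups, in CPM with TMM scaling; points are mice, lines the group mean and bars the SD. For Gria4, all mice at 1 wpi (112 to 124 CPM) sit below the 5 Sham mice (131 to 144 CPM), and the 3 wpi groups return to or near that range.

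Summed over the family, the glutamate members stood at 1636 ± 78.5 TPM (SD) in the Sham mice, 1596 ± 92.9 after PBS, 1527 ± 68.2 after MSCs and 1411 ± 53.7 TPM after IL-4 MSCs at 1 wpi. The GABA members stood at 1784 ± 57.6, 1713 ± 68.1, 1673 ± 18.5 and 1574 ± 65.3 TPM in the same order. These sums are shares of the library and were not tested.

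Markers of other cell types moved in the same comparisons. Of 15 general neuron markers, 13 were lower in the IL-4 MSC mice at 1 wpi, 8 in the MSC mice and 6 in the PBS mice, and their summed level was 10033 to 10754 CPM in the Sham mice against 8651 to 9222 CPM in the IL-4 MSC mice. The neuron score, the mean log2 CPM over the list, was 0.23 lower after IL-4 MSCs, 0.17 lower after MSCs and 0.16 lower after PBS than in Sham (exact two-sided permutation p = 0.00794 each, the smallest that 5 against 5 allows, adjusted p = 0.0409). The cortical projection neuron score differed from Sham by -0.17, -0.13 and -0.17 in the same order (exact permutation, adjusted p = 0.0409 each). With the neuron score of each mouse as a covariate, 4 members were lower in the IL-4 MSC mice, Gabrg3, Grid1 and Grik2 among them. The MSC and PBS mice had 0. Of all genes, 10%, 3.41% and 1.98% were called in either direction. Every Sham mouse (8.96 to 9.04) scored above every injured mouse at 1 wpi (8.74 to 8.91), so this fit could hardly separate score from injury. In the same order, the members' median log2 fold change was -0.21, -0.14 and -0.08 with the score and -0.21, -0.13 and -0.06 without it. The smaller counts do not measure the part of neurons, which was not tested. In bulk tissue, fewer cells of a type, less RNA per cell and a larger share of RNA from other cells cannot be told apart.

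Microglia and macrophage markers were higher in 11 of 12 genes in all 3 injured groups at 1 wpi, and their sum was 334 to 474 CPM in the Sham mice and 824 to 1066 CPM in the IL-4 MSC mice. Astrocyte markers were higher in 6 of 10 genes and endothelial markers in 5 of 8 genes after IL-4 MSCs. No listed marker of any of these types was at 0 in every library of the 7 groups. The part of these cells in the receptor values was not tested. Against the 2 Sham mice of week 1 alone, 22 members were lower and 2 higher in the IL-4 MSC mice, beside 33.1% of all genes called in either direction. The 2 higher members were Gabrd (0.53, edgeR adjusted p = 0.0312) and Grm4 (0.45, adjusted p = 0.0463). These 2 mice had Gabrd at 33.8 and 28.0 CPM, against 50.9 to 60.6 CPM in the Sham mice of week 3. Their striatal scores were 3.59 and 3.59, against 5.36, 5.50 and 5.64 in the Sham mice of week 3. Their hippocampal scores were 3.91 and 3.49, against 3.33, 3.19 and 3.12, and their thalamic scores 5.20 and 4.73, against 5.84, 6.06 and 5.63. The part of the dissected region in these same-week calls was not tested.

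The effect of the injected agent at 1 wpi was read between injured groups. Relative to PBS, IL-4 MSCs were followed by lower levels of 15 members and higher levels of 0 (35.7% lower), where 6.16% of all genes were lower and 17.4% were called in either direction. The members' median log2 fold change was -0.15. Grm7 led, with 66.5, 63.4, 62.7, 63.8 and 62.5 CPM in the PBS mice, all above the IL-4 MSC mice (-0.17 ± 0.04, edgeR adjusted p = 0.00158). Grm7 kept its call under all 8 other settings and in all 10 fits that left out 1 mouse.

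Grid1 (-0.14 ± 0.04, edgeR adjusted p = 0.00965), Gabrb1 (-0.23 ± 0.06, adjusted p = 0.0099), Grik4 (-0.40 ± 0.11), Gria1 (-0.38 ± 0.11) and Gabra5 (-0.57 ± 0.18) also fell relative to PBS. Gabrb1 was at 281, 276, 266, 259 and 234 CPM in the PBS mice and 239, 208, 216, 222 and 236 CPM in the IL-4 MSC mice, where only PBS replicate 5 fell within the other group. Others were Gabra2 (-0.28), Gria3 (-0.15), Grik5 (-0.15), Grin3a (-0.24), Grm5 (-0.21), Grin1 (-0.13) and Gria2 (-0.18). By family these 15 were 3 AMPA, 2 kainate, 2 NMDA, 1 delta and 2 metabotropic receptor genes, and 5 GABA-A genes. In 9 members the groups did not overlap, beside 5.25% of all genes lower without overlap.

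The count against PBS rested on single mice more than the count against Sham did: it was 3 without PBS replicate 3 or without IL-4 MSC replicate 2, 4 without IL-4 MSC replicate 3 and 6 without IL-4 MSC replicate 4, and 9 without PBS replicate 2 or 5 or without IL-4 MSC replicate 5. The shares of all genes in these fits are not given, so the swings were not read as particular to receptor members. Between these groups the neuron score differed by -0.07 (exact permutation, adjusted p = 0.262), the hippocampal score by -0.43 and the striatal score by 0.85 (both adjusted p = 0.0409). The cortical projection neuron score differed by -0.00 (exact permutation, adjusted p = 0.992). With the neuron, hippocampal or striatal score as a covariate, 8, 12 and 12 members were lower, beside 12.2%, 15.2% and 14.4% of all genes called in either direction. Grid1, Gabrb1, Grik5 and Grm7 were among those called under each of the 3 scores. Microglia and macrophage markers were higher in 7 of 12 genes (score difference 0.54) and endothelial markers in 7 of 8 genes (0.52) in the IL-4 MSC mice (exact permutation, adjusted p = 0.0409 for both scores), and the part of these cells in the receptor values was not tested.

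Relative to naive MSCs, IL-4 MSCs were followed by 0 members past the threshold (edgeR), while 8.69% of all genes were. At an unadjusted p under 0.05 there were 7 of 42 members and 3405 of 17131 genes, and DESeq2 called 0 members. Grid1 (65.9 to 67.5 CPM against 68.2 to 71.6 CPM) and Grik5 (176 to 184 CPM against 186 to 202 CPM) had every IL-4 MSC mouse below every MSC mouse, as did 2.32% of all genes. Naive MSCs relative to PBS gave 0 members called by edgeR or DESeq2 and 2 at an unadjusted p under 0.05 (774 of 17131 genes), with 0.123% of all genes called.

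GABA-A genes lie in clusters, and those on chromosomes 5 and X were also read by cluster (GRCm38, GENCODE M21 gene spans). On chromosome 5, from 70751047 to 72149037, Gabrg1, Gabra2, Gabra4 and Gabrb1 lie together; Gabra2 and Gabrb1 fell after IL-4 MSCs and Gabrg1 and Gabra4 did not pass. On chromosome X, from 72255999 to 72842602, lie Gabre, Gabra3 and Gabrq. There Gabra3 fell in all 3 injured groups, and the low Gabre and Gabrq did not pass. The annotated spans of Gabra4 and Gabrb1 overlap on opposite strands. Whether strand was used in the quantification is not given in the sources used here. Counts came from transcript sequences, so reads could be shared only where transcripts share sequence. That was not examined for genes whose spans overlap in this way, Gabra5 included.

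**Figure D4:**
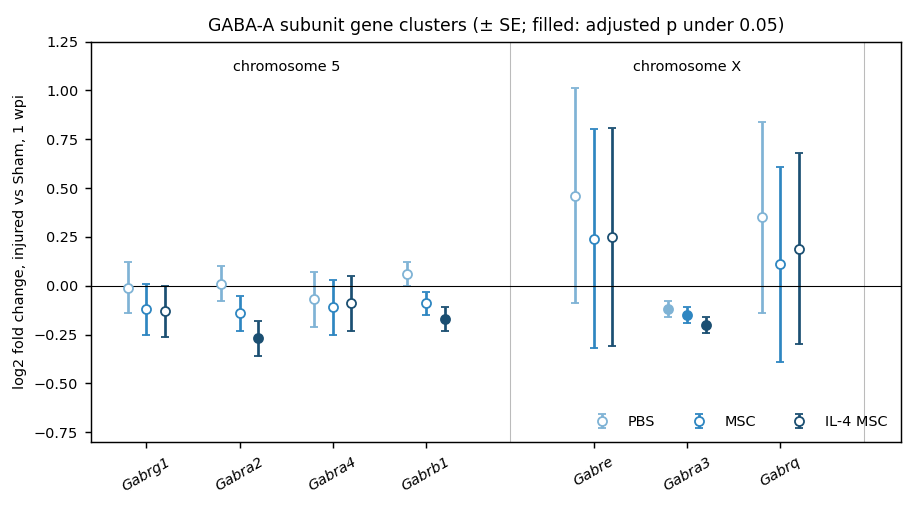
Log2 fold change (± SE) of the GABA-A genes of the clusters on chromosomes 5 and X against Sham in the PBS, MSC and IL-4 MSC mice at 1 wpi, in gene order along the chromosome; open symbols did not pass an adjusted p of 0.05. Gabra3 passes in all 3 groups, between -0.20 and -0.12, and Gabra2 and Gabrb1 pass after IL-4 MSCs only.

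Genes that act with the receptors were read from lists that hold none of the 47 members. Their counts after IL-4 MSCs at 1 wpi stand beside 18.5% of all genes called lower and 18.4% called higher than in Sham. Of 34 auxiliary and scaffold genes of AMPA, kainate and NMDA receptors, 21 fell and 0 rose after IL-4 MSCs at 1 wpi, against 8 after MSCs and 7 after PBS, and their median log2 fold change was -0.22 after IL-4 MSCs. Examples were Dlg2 (-0.27), a PSD-95 family scaffold, Shisa9 (-0.23), an AMPA receptor auxiliary protein, Nsf (-0.30), which binds GluA2, and Cbln2 (-0.34), a ligand of delta receptors. Of 14 GABA receptor auxiliary and scaffold genes, 5 fell and 2 rose (median -0.11). Gphn, the gephyrin scaffold (-0.16), and Slitrk3 (-0.28) were lower, and Gabarap, a trafficking protein also used in autophagy, was higher (0.26).

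Of 9 genes for GABA synthesis, release and uptake, 5 fell and 0 rose (median -0.26), among them Gad1 (-0.31), Aldh5a1 (-0.26) and Slc6a13 (-0.70). Slc6a13 encodes a transporter of meninges and vessels. Of 15 genes for glutamate release, uptake and metabolism, 7 fell and 2 rose (median -0.16), among them Gls2 (-0.29), the neuronal transporter Slc1a1 (-0.28) and the astrocytic transporter Slc1a2 (-0.24).

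By 3 wpi few members differed from Sham. PBS mice had 0 members called by edgeR, with 0.0292% of all genes called and 1 member at an unadjusted p under 0.05 (914 of 17131 genes), and MSC mice had 0, with 1.15% of all genes called and 4 members at an unadjusted p under 0.05 (1886 of 17131 genes). DESeq2 called 0 members in both. In the IL-4 MSC mice 2 members were lower, Gabrb2 and Grin2a, where 1.52% of all genes were lower and 4.27% were called in either direction. Gabrb2 was at 206, 222, 198, 212 and 200 CPM (-0.15 ± 0.04) and Grin2a at 312, 436, 351, 339 and 342 CPM (-0.30 ± 0.09), both with an edgeR adjusted p = 0.0490. Both ranges overlapped the Sham mice, and both calls were lost under 7 of 9 other settings. In the same comparison the neuron score was 0.11 lower (exact permutation, adjusted p = 0.0409), and the cortical projection neuron score differed by 0.00 (adjusted p = 0.896). Microglia and macrophage markers were higher in 8 of 12 genes (score difference 0.57, adjusted p = 0.0935). The part of these cell types in the receptor values was not tested.

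Relative to PBS at 3 wpi, Grin3a, an NMDA subunit that lowers calcium flow, was lower after IL-4 MSCs (2.94% of all genes called, 0.776% lower). Its level was 65.8, 64.9, 49.5, 49.7 and 49.3 CPM against 73.4, 68.0, 68.5 and 68.4 CPM in the PBS mice, without overlap (-0.32 ± 0.08, edgeR adjusted p = 0.0298). Relative to MSCs at 3 wpi, Gabbr2 was lower at 330, 443, 364, 300 and 326 CPM against 467, 438, 432, 410 and 368 CPM (-0.26 ± 0.07, adjusted p = 0.0357). Grik3 was higher at 156, 112, 142, 163 and 157 CPM against 122, 117, 125, 128 and 106 CPM (0.29 ± 0.08, adjusted p = 0.0452). In this comparison 2.29% of all genes were higher and 1.18% lower, 3.47% in either direction. Against Sham and against MSCs, 0 members were without overlap in the IL-4 MSC mice at 3 wpi (1.32% of all genes lower and 2.01% higher, and 0.765% and 0.829%). Against PBS, Gabra2 and Grin3a were lower (1.43% of all genes) and Grm3 higher (1.79%) in every mouse. MSCs relative to PBS at 3 wpi gave 0 members called by edgeR or DESeq2 and 0 at an unadjusted p under 0.05 (981 of 17131 genes), with 0.0817% of all genes called.

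IL-4 MSC replicate 2 at 3 wpi stood apart from the other 4 mice of its group in these genes, being the highest for Gabbr2 and Grin2a and the lowest for Grik3. Its striatal score was 4.44, against 6.41, 6.36, 7.16 and 6.64 in the others, and its hippocampal score was 3.58, against 1.54, 2.72, 1.26 and 2.54. Striatal markers were higher in 10 of 13 genes against Sham, 12 against PBS and 11 against MSCs at 3 wpi (score differences 1.47, 1.84 and 1.58, exact permutation, adjusted p = 0.262, 0.116 and 0.116). The hippocampal score differed by -1.08, -1.12 and -1.01 in the same order (adjusted p = 0.134, 0.183 and 0.201), and none of these 6 score differences passed with replicate 2 included. With any of the striatal, hippocampal or neuron scores as a covariate, 0 members were called in these 3 comparisons. A score that moves with the group widens the error of a fold change, so these 0 counts do not measure the part of the region.

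Without replicate 2, 3 members were higher against Sham (Gabrg3, Grik2 and Grik3) and 10 lower, among them Gabbr2, Gabra5, Gabrb1, Gabrb2, Grik1, Grik4, Grin2a, Grin2b and Grin3a, beside 10.1% of all genes called. The values without it were -0.35 for Gabbr2 (edgeR adjusted p = 0.00039), -0.39 for Grin2a, -0.31 for Grin3a and 0.29 for Grik3. Replicate 2 was picked by its values in Gabbr2, Grin2a and Grik3. Larger differences without it therefore follow from that choice and are description only. Against PBS, 4 members were higher and 7 lower (9.23% of all genes called), and against MSCs 5 were higher and 8 lower (10%). Without replicate 2 the striatal score ran from 6.36 to 7.16, against 3.59 to 5.64 in the Sham mice. The hippocampal score ran from 1.26 to 2.72, against 3.12 to 3.91 in the Sham mice, so neither score overlapped. The calls without replicate 2 against Sham thus stand beside a difference in region markers. The part of the dissected region in the receptor values at 3 wpi was not tested.

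**Figure D5:**
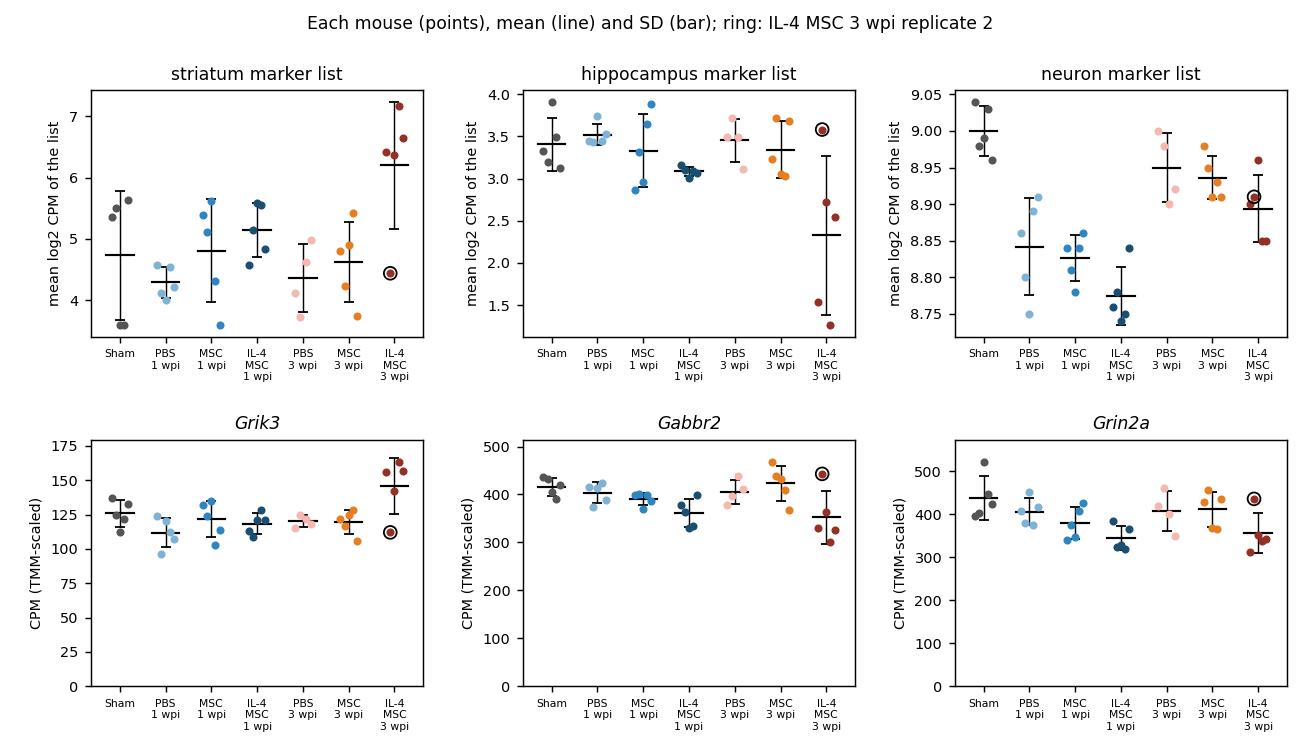
Mean log2 CPM over the striatum, hippocampus and neuron marker lists, and the level of Grik3, Gabbr2 and Grin2a in CPM, in each mouse of the 7 groups; points are mice, lines the mean and bars the SD, and the ring marks IL-4 MSC replicate 2. That mouse has the lowest striatal score of its group (4.44) and the highest hippocampal score (3.58), Gabbr2 (443 CPM) and Grin2a (436 CPM).

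Between 1 and 3 wpi members rose in each injected group. In the IL-4 MSC mice 18 of 42 rose and 0 fell (42.9% higher), where 16.4% of all genes rose and 33.0% were called in either direction. They included 3 AMPA (Gria2 0.26, Gria3 0.19, Gria4 0.18), 3 kainate (Grik2 0.28, Grik3 0.30, Grik5 0.21) and 1 NMDA member (Grin1 0.23). Grid1 (0.18) rose, with 4 metabotropic members (Grm3 0.40, Grm5 0.36, Grm7 0.21, Grm8 0.43) and, among GABA-A members, Gabra3 (0.17) and Gabrg3 (0.45). Gria4 reached 128, 130, 141, 127 and 124 CPM at 3 wpi, above every IL-4 MSC mouse at 1 wpi, and Grm5 reached 276, 256, 265, 345 and 286 CPM from 235, 206, 221, 230 and 224 CPM. Striatal markers were higher in 10 of 13 genes in the same comparison, and neuron markers in 8 of 15 (neuron score difference 0.12). Microglia and macrophage markers were lower in 10 of 12 genes (score difference -1.06), endothelial markers in 7 of 8 (-0.53) and astrocyte markers in 4 of 10 (-0.35), each of these scores and the neuron score with an adjusted p = 0.0409 (exact permutation). Oligodendrocyte precursor markers were lower in 4 of 6 genes (score difference -0.21, adjusted p = 0.0708). The part of these cells in the receptor values was not tested.

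In the PBS mice 2 members rose, Gria4 (0.15, edgeR adjusted p = 0.0120) and Gabra3 (0.13, adjusted p = 0.05 after rounding up), where 0.613% of all genes rose and 5.51% were called in either direction. In the MSC mice 3 rose, Gria4 (0.14), Grik1 (0.26) and Grm7 (0.13), where 1.22% rose and 6.15% were called. Gria4 stood at 134, 134, 131 and 134 CPM after PBS and 129, 126, 138, 135 and 124 CPM after MSCs at 3 wpi. Both groups were above their 1 wpi mice for this gene, apart from MSC replicate 5, which was level with the highest 1 wpi mouse. The microglia and macrophage score differed by -0.76 in PBS and -0.62 in MSC mice between these weeks (exact permutation, adjusted p = 0.0409 each). The neuron score differed by 0.11 (adjusted p = 0.134) and 0.10 (adjusted p = 0.0409) in the same order. The part of these cells in the receptor values was not tested.

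Whether the IL-4 MSC difference itself changed between weeks was tested as an interaction. Relative to PBS, 3 members had a higher difference at 3 wpi than at 1 wpi and 0 a lower one (0.788% of all genes higher, 4.72% called): Grik5 (0.30 ± 0.07, edgeR adjusted p = 0.00988), Grik2 (0.25 ± 0.07, adjusted p = 0.0381) and Grin1 (0.22 ± 0.07, adjusted p = 0.0482). Grik5 was at 189, 192, 216, 198 and 211 CPM after PBS and 176 to 184 CPM after IL-4 MSCs at 1 wpi, and at 174, 206, 189 and 188 CPM after PBS and 196, 195, 211, 229 and 215 CPM after IL-4 MSCs at 3 wpi. The call for Grik5 held under all 8 other settings and in all 19 fits that left out 1 mouse. The call for Grik2 was lost under 4 of 8 other settings, the striatal and hippocampal scores among them, and in 17 of the 19 fits, and that for Grin1 under 7 of 8 and in 14 of 19. Relative to MSCs, Grik2 (0.25, adjusted p = 0.0190) and Grik5 (0.23, adjusted p = 0.0353) were called (1.90% of all genes higher, 5.96% lower, 7.86% called). Both of these were lost with the striatal or the hippocampal score as a covariate.

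Ratios between subunits are given in TPM and without a test. Grin2a/Grin2b was 0.789 ± 0.0236 (SD) in the Sham mice and averaged 0.723 to 0.755 in the injured groups. Gria2/Gria1 was 1.29 ± 0.112 in the Sham mice, 1.17 and 1.26 after PBS and MSCs at 1 wpi, 1.22 and 1.24 after PBS and MSCs at 3 wpi, 1.36 ± 0.0519 after IL-4 MSCs at 1 wpi and 1.51 ± 0.193 after IL-4 MSCs at 3 wpi, where the mice ran from 1.19 to 1.64. Grik1/Grik2 was 0.330 ± 0.0278 in the Sham mice, 0.287 to 0.335 on average in the other groups and 0.258 ± 0.0591 after IL-4 MSCs at 3 wpi. In that last group, replicate 2 had the lowest Gria2/Gria1 and the highest Grik1/Grik2. It was also the mouse with the lowest striatal and the highest hippocampal score of the group. The part of the dissected region in these ratios was not tested.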

How the data were processed

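Bulk gene expression was measured in 34 mouse brain libraries; the labels list 35 samples, and the PBS 3 wpi sample without a column in the table was not analysed here. Per the labels and the methods, the authors extracted RNA with a lipid tissue kit, sequenced 50-base read pairs on an Illumina NovaSeq instrument, trimmed with cutadapt 2.4, and quantified with kallisto 0.46 against protein-coding GENCODE M23 transcripts (GRCm38). The deposited table gives, per gene and library, an estimated count, not normalized and not always whole, and TPM, scaled by the authors for transcript length and depth. Its 63 columns of the authors' own fold changes and p-values were not used.

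Estimated counts were rounded to whole numbers and fitted in edgeR 4.0.16 (R 4.3.3) with TMM scaling, filterByExpr over the 7 groups, all 34 libraries in 1 quasi-likelihood fit without covariates, and Benjamini-Hochberg adjustment over 17131 genes, with calls at 0.05. Standard errors are the absolute log2 fold change over the square root of F. Levels within a gene are TMM-scaled CPM, and levels between genes are TPM. Marker scores were compared by exact permutation tests, adjusted over 165 tests. The fit was tested on simulated data. Alternatives were DESeq2 1.42.0, its size factors, no filter, only the groups compared, Sham mice of the same week, 3 marker scores as covariates, the replicate block and leaving out each mouse.

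The members and lists were chosen with earlier results of these data known. Values per mouse were examined for the 4 called members of lowest adjusted p in each comparison of 1 wpi with Sham, of IL-4 MSCs with the other groups, and for the highest member of each family, and a few further members were added after their values were seen. The labels number the libraries of a group without naming animals, and each was taken as a mouse; if any share an animal, the p-values measure only the spread between libraries. Each treated group carries 1 bracketed number in its sample titles, so what that number marks cannot be told apart from the group. Depth ran from 29838423 to 41554322 counts per library. Some genes counted among the members and lists are not reported here by name.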

Additional observations from a re-analysis of the deposited data

Results flagged for a closer look

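In groups of 4 or 5 mice, a mouse far from the others was looked for in 126 groups (18 members examined mouse by mouse, in 7 groups), and 4 were found; chance gives about 1 in 20. Gria4 was lowest in PBS 3 wpi replicate 3 (131 CPM, against 134 CPM in the other 3 mice). Grin3a was highest in PBS 3 wpi replicate 1 (73.4 CPM, against 68.0 to 68.5 CPM). Gabrr2 was lowest in IL-4 MSC 3 wpi replicate 4 (0.382 CPM, against 0.696 to 0.748 CPM). Gabbr1 was lowest in MSC 3 wpi replicate 5 (729 CPM, against 885 to 909 CPM).

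Among members left out of the test, Gabra6 was highest in MSC 3 wpi replicate 5, at 6.53 CPM or 228 counts, while the other mice of that group had at most 0.0331 CPM. It also stood apart in IL-4 MSC 3 wpi replicate 2, at 0.285 CPM.

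The IL-4 MSC difference at 3 wpi was higher than that at 1 wpi on the log2 scale for 3 members relative to PBS, by 0.25 for Grik2, 0.30 for Grik5 and 0.22 for Grin1. Relative to MSCs it was higher by 0.25 for Grik2 and 0.23 for Grik5. The IL-4 MSC mice enter both comparisons, and only the first kept Grik5 under all other settings.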

How the results depend on the processing

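No member or score reversed its direction where it had been called. The share of all genes called in either direction moved between settings too, so the counts below were not read as particular to receptor members. Against Sham at 1 wpi it was 13.8% for PBS, 17.8% for MSCs and 37.0% for IL-4 MSCs. With the neuron score these shares were 1.98%, 3.41% and 10%. With Sham mice of the same week they were 10.4%, 16.2% and 33.1%. Shares are not given for every setting. The number of members called depended most on the covariates and on single mice. With the neuron score it was 0 for PBS and 0 for MSCs against Sham at 1 wpi, 4 for IL-4 MSCs against Sham, 8 for IL-4 MSCs against PBS at 1 wpi, 0 for IL-4 MSCs at 3 wpi against Sham, PBS and MSCs, and 0 for 3 against 1 wpi in the PBS and in the MSC mice. With the striatal or the hippocampal score it was 0 for IL-4 MSCs at 3 wpi against Sham, PBS and MSCs and 1 for IL-4 MSCs against MSCs at 1 wpi. The interaction with PBS gave 6 with the striatal and 1 with the hippocampal score, and that with MSCs 5 and 0; PBS at 3 against 1 wpi gave 1 with the hippocampal score. With only the groups compared, the count was 0 for each comparison of IL-4 MSCs at 3 wpi and for MSCs at 3 against 1 wpi, and 1 for IL-4 MSCs against MSCs at 1 wpi, PBS at 3 against 1 wpi and both interactions. Without a filter it was 0 for IL-4 MSCs against Sham at 3 wpi and 1 for PBS at 3 against 1 wpi. With Sham mice of the same week it was 16 for MSCs at 1 wpi and 0 for IL-4 MSCs at 3 wpi. DESeq2 gave 5, 3 and 4 for IL-4 MSCs at 3 wpi against Sham, PBS and MSCs, and its size factors gave 1 for the interaction with PBS.

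Leaving out each mouse of the groups compared in turn gave 3 to 7 members for PBS against Sham at 1 wpi (3 without Sham replicate 1 or PBS replicate 2), 16 to 22 for IL-4 MSCs against Sham (16 without Sham replicate 3 or IL-4 MSC replicate 2), 3 to 14 against PBS and 0 to 1 against MSCs (1 without MSC replicate 1). At 3 wpi it gave 0 to 13 against Sham, 0 to 11 against PBS and 0 to 13 against MSCs, with the highest count each time without IL-4 MSC replicate 2. In the same order, 10.1%, 9.23% and 10% of all genes were called without that mouse, and 4.27%, 2.94% and 3.47% with all mice. Between weeks, leaving out 1 mouse gave 0 to 2 for PBS (0 without 1 wpi replicate 2) and 0 to 4 for MSCs. For the interactions it gave 1 to 3 with PBS and 0 to 5 with MSCs (5 without IL-4 MSC 3 wpi replicate 2). The hippocampal score ran from -0.39 to -0.20 for IL-4 MSCs against Sham at 1 wpi and from -1.39 to -0.81 and -1.33 to -0.75 against Sham and MSCs at 3 wpi, the neuron score from -0.17 to -0.13 for PBS at 1 wpi and -0.12 to -0.10 for IL-4 MSCs at 3 wpi, and the striatal score from 0.74 to 0.99 against PBS at 1 wpi and 1.34 to 2.02 against MSCs at 3 wpi.

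The replicate numbers did not pair the mice: deviations from the group means of same-numbered mice correlated at -0.46 to 0.40 over 99 pairs, with a median of 0.01. With the replicate block, 26 members were called for IL-4 MSCs against Sham at 1 wpi and 1 for IL-4 MSCs against Sham at 3 wpi. With the median over the list in place of the mean, the neuron score lost its call in PBS (-0.10) and MSC mice (-0.14) at 1 wpi and in IL-4 MSC mice at 3 wpi (-0.12), as did the hippocampal (-0.63) and striatal (0.77) scores of IL-4 MSCs against PBS at 1 wpi. Except for these alternatives' own construction, the cause of these changes was not tested. Over all comparisons, 39 counts from other settings moved by more than 1.5 times and 103 did not; with 1 mouse left out, 79 moved and 106 did not.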
